A study of Mus musculus with 15 samples.

Results

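Fabp6, Slc10a2, Slc51a, Slc51b, Fgf15 and Nr1h4 are the genes with which the ileum takes up, carries, exports and senses bile acids. They were chosen by name, as 6 of the 17185 genes of the count table, and each had counts in it. Single cells of the intestine of 5 mice were sequenced with Seq-Well, a method that isolates cells in small wells, and every mouse gave 3 libraries, from the proximal and the distal part of the small intestine and from the colon. All mice were 6 months old and carried the Lgr5-eGFP-IRES-CreERT2 allele, a knock-in at the stem cell gene Lgr5 that drives a green fluorescent protein and an inducible Cre, controls included. The 2 control mice ate a purified diet with 10% of its kcal from fat and the 3 high fat mice one with 60%. The length of feeding is not given in the sources used here.

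Bile acids are made from cholesterol in the liver, help to dissolve dietary fat in the gut, and are mostly recovered in the ileum, the last stretch of the small intestine. There Slc10a2, the sodium-dependent transporter of the brush border, brings them into absorptive cells, Fabp6 binds them in the cytosol, and Slc51a and Slc51b together form the exporter of the basolateral membrane. Nr1h4 encodes FXR, the nuclear receptor that binds bile acids and activates Fabp6, Slc51a, Slc51b and Fgf15, a hormone that travels to the liver and represses bile acid synthesis.

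Counts of unique molecular identifiers (UMIs, one per captured transcript) were summed per library over cells with the deposited stem call and over cells without it, and levels are given as CPM, the UMIs of a gene per 1000000 UMIs of the same sum. Of 18919 cells 4618 carried the stem call, and these were exactly the cells with a UMI of Lgr5 or of eGFP. Libraries held 324 to 1920 cells and 2020756 to 42346752 UMIs, and 16 of 18898 distinct barcodes occurred in more than 1 library. Genes seen in few cells of a library may have been set to 0 in it, a step that no label records. Of the gene and library pairs, 47183 had no cell with a UMI, 94 had 1 such cell and 5035 had 5. A level of 0 below is therefore treated as no limit on the gene's level. The proximal and distal labels were compared with segment genes in stem-called cells. In the distal libraries 7 of 11 tested genes of a proximal list were lower and 7 of 12 of a distal list were higher (edgeR, adjusted p under 0.05). No gene of either list was called the other way. The lists were chosen with earlier results of these data known, so this is no independent check of the labels.

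Along the gut, Fabp6, Slc51b and Slc10a2 were higher in the distal than in the proximal small intestine, and Fabp6 and Slc51a were higher in the distal small intestine than in the colon. In cells without the stem call, edgeR's quasi-likelihood test called 3 of the 5 members it could test between distal and proximal, against 6.32% of all 14307 genes in either direction. Between distal small intestine and colon it called 2 of 5, against 13.9% of genes. In stem-called cells it called 2 of 4 members against 5.46% of 12339 genes, and 2 of 4 against 12.8%. Fgf15 was below the filter on low counts of these fits in both populations.

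**Figure D1:**
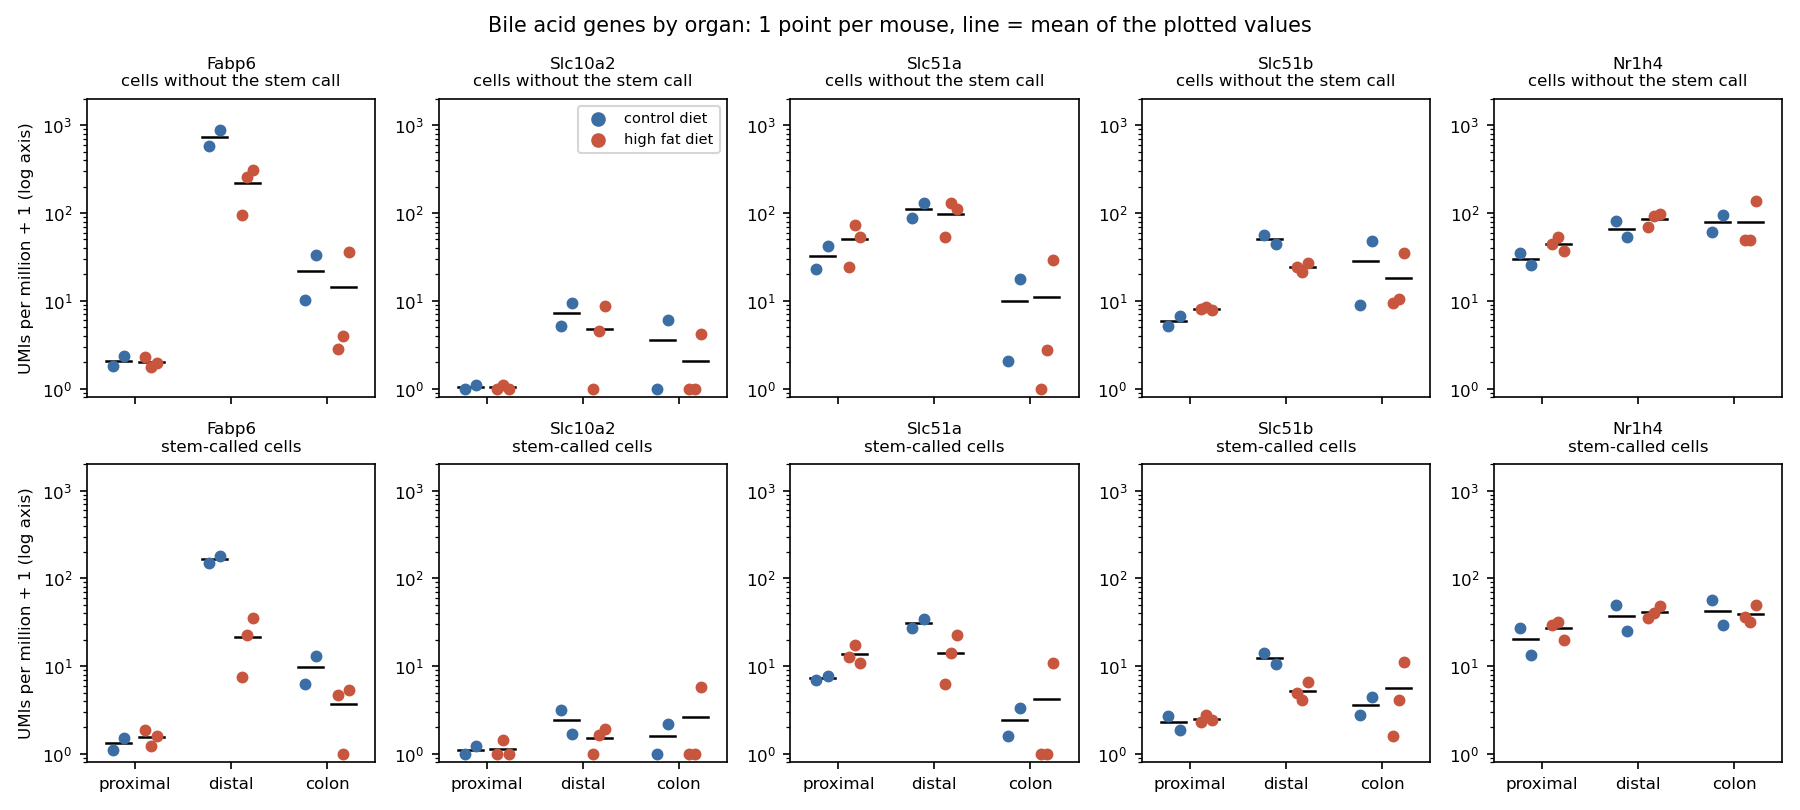
Level of 5 members in each library (CPM plus 1, log axis) by organ, for cells without the stem call (upper row) and stem-called cells (lower row). Each point is 1 mouse, blue for the control and red for the high fat diet, and the line is the mean of the plotted values of a group. Fabp6 sits between 93.7 and 875 CPM in the distal small intestine and at 1.36 CPM or less in the proximal small intestine in the upper row.

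Slc10a2, the uptake transporter (chromosome 8, 5083219 to 5105351, minus strand, mm10), was a low gene in these libraries. Among cells without the stem call of the distal small intestine it stood at 4.16 and 8.51 CPM in control mice 1 and 2, and at 0, 3.51 and 7.69 CPM in high fat mice 1 to 3. The proximal libraries together held 3 UMIs in control mouse 2 and 2 in high fat mouse 2. In the colon, 5.12 CPM were seen in control mouse 2 and 3.20 CPM in high fat mouse 3, and the other 3 libraries were at 0. Only high fat mouse 1, at 0, kept the distal libraries from lying above all proximal ones. The fitted log2 difference between distal and proximal was 6.38 (SE 1.57, adjusted p = 0.0306), a size that depends on the small count the fit adds to libraries at 0. The call too rests on proximal libraries at or near 0, and a 0 is treated as no limit on the gene's level. The call was lost without control mouse 1 or 2 or high fat mouse 2 or 3 (adjusted p = 0.155, 0.176, 0.153 and 0.117), and under limma voom (0.0765). Distal and colon levels were not told apart (log2 1.34, SE 1.13, adjusted p = 0.51).

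Fabp6, the cytosolic bile acid binder (chromosome 11, 43596049 to 43601540, minus strand), had the widest range along the gut among the members tested. Its levels in distal cells without the stem call were 577 and 875 CPM in control mice 1 and 2 and 93.7, 256 and 312 CPM in high fat mice 1 to 3. The proximal libraries held 0.740 to 1.36 CPM and the colon libraries 1.83 to 35.5 CPM, so that no library of another organ reached the lowest distal one. The log2 difference was 8.59 to proximal (SE 0.90, adjusted p = 0.000151) and 4.46 to colon (SE 0.70, adjusted p = 0.000945). Stem-called cells gave the same order, with 6.54 to 181 CPM in distal, 0.121 to 0.859 CPM in proximal and 0 to 12.1 CPM in colon libraries, where distal and colon overlapped. There the log2 difference was 7.05 to proximal (SE 0.52, adjusted p = 1.66e-06) and 3.37 to colon (SE 0.43, adjusted p = 6.45e-05).

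The subunits of the exporter did not follow the same order of organs. Slc51a (chromosome 16, 32474504 to 32487879, minus strand) went from distal over proximal to colon. In cells without the stem call it ranged from 52.0 to 130.5 CPM in distal, 22.2 to 71.5 CPM in proximal and 0 to 28.0 CPM in colon libraries. Distal and proximal overlapped and were not called different (log2 1.35, SE 0.76, adjusted p = 0.388), while distal was above colon by 3.25 (SE 0.83, adjusted p = 0.0197). In stem-called cells distal exceeded colon by 2.82 (SE 0.61, adjusted p = 0.00526) and proximal by 1.19 (SE 0.47, adjusted p = 0.221). The latter passed without high fat mouse 1 (1.37, adjusted p = 0.0331). Without control mouse 2 the distal against colon call of Slc51a was lost in both populations (adjusted p = 0.0584 in stem-called and 0.0545 in other cells), and in other cells also without control mouse 1 (0.104) or high fat mouse 2 (0.11). Leaving out high fat mouse 3, the colon library with the most Slc51a, moved these differences to 6.31 in stem-called and 5.47 in other cells.

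Slc51b (chromosome 9, 65412714 to 65422955, minus strand), the smaller partner that the exporter needs at the membrane, went from distal over colon to proximal. Cells without the stem call held 20.4 to 54.9 CPM in distal, 8.05 to 46.8 CPM in colon and 4.17 to 7.59 CPM in proximal libraries. Every distal library was above every proximal one, and distal and colon overlapped. The log2 difference to proximal was 2.48 (SE 0.48, adjusted p = 0.00772) and that to colon 0.58 (SE 0.45, adjusted p = 0.467). In stem-called cells, at 3.11 to 13.2 CPM distal against 0.876 to 1.77 CPM proximal, the difference was 2.35 (SE 0.48, adjusted p = 0.0082). The call in stem-called cells was lost without control mouse 1 or 2 or high fat mouse 2 (adjusted p = 0.0568, 0.109 and 0.0546), and that in other cells without high fat mouse 2 (0.0561).

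Nr1h4, the receptor (chromosome 10, 89454234 to 89533585, minus strand), was present in every library and differed least between organs. In cells without the stem call it stood at 24.3 to 52.7 CPM in proximal, 51.7 to 95.7 CPM in distal and 47.9 to 137 CPM in colon libraries. The distal minus proximal difference was 1.04 (SE 0.31, adjusted p = 0.0681) in these cells and 0.79 (SE 0.26, adjusted p = 0.12) in stem-called cells. With the mouse as a block, which compares organs within each animal, both passed, at 1.01 (adjusted p = 0.043) and 0.82 (adjusted p = 0.00251), in fits that called 2071 and 1336 genes in place of 904 and 674. DESeq2 called the difference in cells without the stem call as well (1.07, adjusted p = 0.00991). Distal and colon were not told apart in either population (log2 -0.06, SE 0.30, and -0.08, SE 0.27).

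Fgf15, the hormone (chromosome 7, 144896531 to 144900953, plus strand), was at the edge of detection. In the distal small intestine it was counted in control mouse 2, with 44 UMIs in cells without the stem call and 3 in stem-called cells, and in high fat mouse 3, with 15 and 5. Those are the deepest distal libraries. In the proximal small intestine it was seen in high fat mouse 2, with 14 and 1 UMIs, and in the colon all 5 libraries were at 0. Its highest level in any of these sums was 1.84 CPM. Fgf15 was below the filter on low counts of the main fits, and no diet or organ result is given for it.

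The colon values of several members moved with 2 libraries. Control mouse 2 and high fat mouse 3 gave the highest colon levels of Fabp6, Slc51a, Slc51b, Slc10a2 and Nr1h4 in cells without the stem call. These libraries also held 271 and 272 absorptive-like cells without the stem call, against 21 in control mouse 1 and fewer than 20 in high fat mice 1 and 2. The part of cell composition in the colon levels was not tested.

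The starts of the genes that were called higher in the distal than in the proximal small intestine show what lies at their promoters. Each stretch runs from 250 bases before to 50 bases after the start of transcription (RefSeq, GRCm38.p6), is written 5′ to 3′ on the gene's own strand, and has in capitals the windows nearest to a motif of 6 letters, 1 free base and 6 letters. They are chr11:43601513-43601812 for Fabp6, chr9:65422724-65423023 for Slc51b and chr8:5105238-5105537 for Slc10a2, all on the minus strand. Promoters were found for 5 of the 6 members, all but Fgf15.
Fabp6: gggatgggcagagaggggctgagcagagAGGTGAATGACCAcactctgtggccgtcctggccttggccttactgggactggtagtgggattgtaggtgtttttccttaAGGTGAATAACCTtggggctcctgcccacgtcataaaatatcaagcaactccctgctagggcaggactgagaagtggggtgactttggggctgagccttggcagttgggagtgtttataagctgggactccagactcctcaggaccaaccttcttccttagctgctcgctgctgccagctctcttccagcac
Slc51b: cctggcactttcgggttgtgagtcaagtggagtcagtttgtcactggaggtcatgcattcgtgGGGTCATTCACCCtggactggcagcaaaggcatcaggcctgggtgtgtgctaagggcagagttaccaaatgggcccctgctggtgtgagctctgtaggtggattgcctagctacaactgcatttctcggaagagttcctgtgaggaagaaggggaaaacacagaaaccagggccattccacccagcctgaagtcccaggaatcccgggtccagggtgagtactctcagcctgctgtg
Slc10a2: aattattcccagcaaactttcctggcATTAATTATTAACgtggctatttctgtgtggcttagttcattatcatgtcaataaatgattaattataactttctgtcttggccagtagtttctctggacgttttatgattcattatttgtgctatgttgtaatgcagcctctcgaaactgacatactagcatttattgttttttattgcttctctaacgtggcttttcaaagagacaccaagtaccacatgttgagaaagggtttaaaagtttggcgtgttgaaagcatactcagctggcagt
In Fabp6 and Slc51b the capitals mark the letters nearest to AGGTCA, 1 free base and TGACCT, the inverted repeat that FXR is known to bind, searched on both strands. Fabp6 held 2 such windows with 2 mismatches each, starting 222 and 142 bases before the start of transcription. A window with at most 2 mismatches lay in 1.14% of 32851 mouse promoters of the same length. The nearest window of Slc51b, and that of Slc51a, had 3 mismatches, which 11.4% of promoters reached. In Slc10a2 the capitals mark a window with 1 mismatch to GTTAAT, 1 free base and ATTAAC, the palindrome of the factor HNF1, starting 224 bases before the start, and 0.207% of promoters held a window that close. Both motifs were searched in all 5 promoters, and 1 motif, set for each gene, is marked. The nearest inverted repeat of Slc10a2 had 4 mismatches, which 56.4% of promoters reached. For the HNF1 palindrome, Nr1h4 had 2 mismatches, which 1.36% of promoters reached, Fabp6 had 4, and Slc51a and Slc51b had 5. These matches describe letters only, and binding was not measured.

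In the distal small intestine, Fabp6 had a lower mean level in high fat than in control mice in each set of cells summed. Slc51b was below both controls in all 3 high fat mice in stem-called, other and absorptive-like cells. No member passed the test across all genes. The comparison asks which genes a high fat diet changes in stem and other intestinal cells. edgeR called 0 of 4 members in stem-called cells, where it called 0.0081% of all genes, 0 of 5 in cells without the stem call, where it called 0.00699%, and 0 of 5 in absorptive-like cells, where it called 0.0187%. At an unadjusted p under 0.05 the corresponding numbers of genes were 330 of 12339, 288 of 14307 and 497 of 10679. By plain levels, 3 members were lower in all high fat than in both control mice among stem-called cells (Fabp6, Slc51a and Slc51b), where 5.11% of genes with at least 10 UMIs were lower in that way. Among cells without the stem call these were 2 members (Fabp6 and Slc51b), against 3.51% of genes.

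Distal stem-called cells held Fabp6 at 151 and 181 CPM in control mice 1 and 2 and at 6.54, 21.8 and 33.9 CPM in high fat mice 1 to 3. The diets did not overlap, and the lowest control value was over 4 times the highest high fat value. The log2 fold change was -3.01 (SE 0.47, adjusted p = 0.0825), ranked 2 of 12339 genes by p. Over 18 alternatives the estimate was negative each time, from -3.70 to -1.53, with adjusted p from 0.000319 to 1, and 8 of them called it. Within the deeper pair of mice, control 2 and high fat 3, the log2 ratio of CPM plus 1 was -2.38, and within the other 3 mice it was -3.32.

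The estimate for Fabp6 depended on which stem-called cells were summed. Absorptive-like cells made up 3.03% and 2.83% of the distal stem-called cells of control mice 1 and 2 and 0.283%, 0% and 0.998% of those of high fat mice 1 to 3. Leaving them out gave Fabp6 levels of 61.1 and 51.5 CPM on the control and 5.02, 21.8 and 29.3 CPM on the high fat diet, which still did not overlap, and a fold change of -1.60 (SE 0.50, adjusted p = 1). With stem-called cells of stem-like clusters alone the levels were 45.1 and 27.6 CPM against 4.56, 30.1 and 9.64 CPM, which overlapped, and the fold change was -1.53 (SE 0.62, adjusted p = 1). These sums were made after the first result was seen.

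Slc51a in the same stem-called cells was at 26.4 and 33.3 CPM in the control and 5.23, 13.1 and 21.4 CPM in the high fat mice (log2 -1.19, SE 0.64, adjusted p = 1). Slc51b was at 13.2 and 9.48 CPM against 3.92, 3.11 and 5.62 CPM (log2 -1.38, SE 0.62, adjusted p = 1). Neither gene's diets overlapped in these sums. Without the absorptive-like cells they did: Slc51a was at 13.1 and 15.1 CPM against 5.02, 13.1 and 18.5 CPM, and its log2 fold change was -0.24 (SE 0.59). Slc51b without those cells was at 5.71 and 4.05 CPM against 3.93, 3.11 and 4.95 CPM, with a fold change of -0.23 (SE 0.63).

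Nr1h4 did not share this pattern in stem-called cells. It stood at 49.0 and 24.4 CPM in control mice 1 and 2 and at 34.2, 39.2 and 46.9 CPM in the high fat mice, with the control mice on either side of the others (log2 0.15, SE 0.38, adjusted p = 1). Leaving out control mouse 2 turned the sign, to -0.36. Slc10a2, at 2.20 and 0.699 CPM against 0, 0.622 and 0.920 CPM, was below the filter on low counts.

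The sums of cells without the stem call gave smaller differences with more spread. Fabp6, at the levels given above, was lower in all 3 high fat mice (log2 -1.74, SE 0.83, adjusted p = 1, and 0.292 to 1 over 15 alternatives). Slc51b stood at 54.9 and 43.9 CPM in control against 23.2, 20.4 and 26.1 CPM in high fat mice, again without overlap (log2 -1.13, SE 0.62, adjusted p = 1). Slc51a was at 87.3 and 130.5 CPM against 52.0, 129 and 110 CPM, where only high fat mouse 1 lay below both controls. Nr1h4 was at 79.3 and 51.7 CPM against 68.9, 91.5 and 95.7 CPM and overlapped (log2 0.34, SE 0.44, adjusted p = 1). A sum over cells cannot tell fewer absorptive cells from less RNA per cell, and absorptive-like cells were 19.7% and 28.6% of these cells in control mice against 10.4%, 18.5% and 18.8% in high fat mice.

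**Figure D2:**
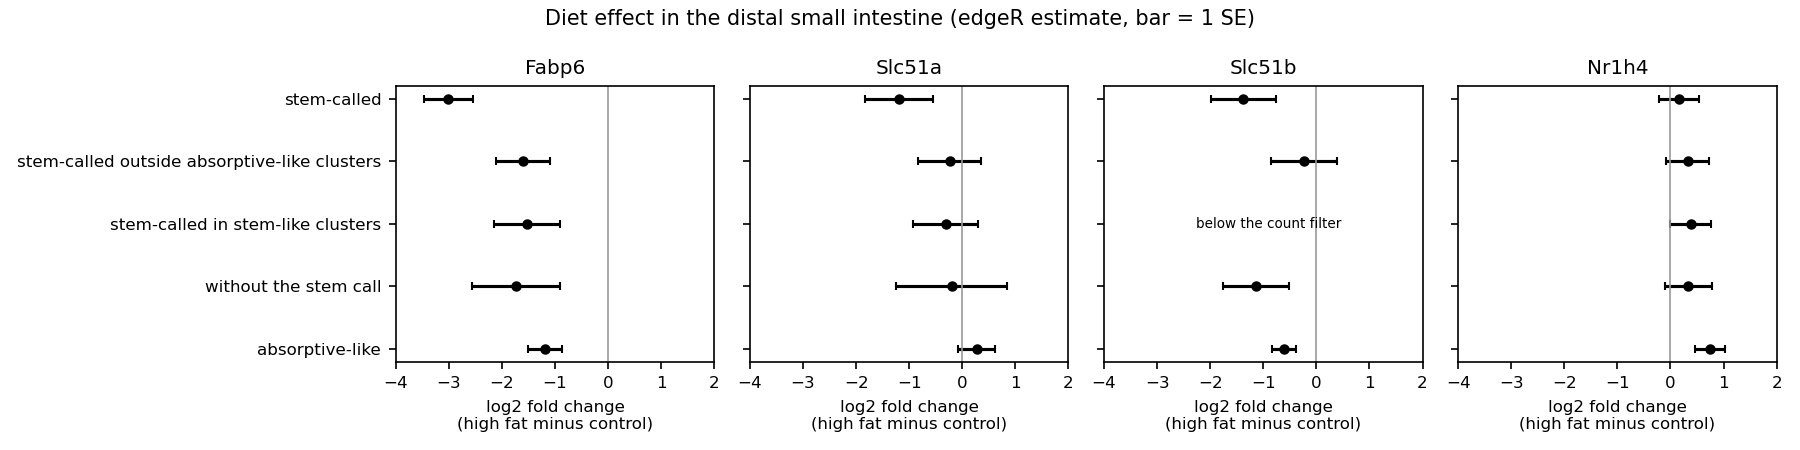
Diet effect in the distal small intestine, as edgeR's log2 fold change of high fat over control (points) with 1 standard error to each side (bars), for Fabp6, Slc51a, Slc51b and Nr1h4 in 5 sets of cells. The Fabp6 points lie between -3.01 and -1.19, all left of 0, while those of Nr1h4 lie between 0.15 and 0.74.

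Absorptive-like cells are those in which these genes are known to work, and summing them alone takes their share of all cells out of the comparison. Fabp6 was again lower in all high fat mice, and Nr1h4 was higher in all of them, short of the threshold. The distal absorptive-like cells of both diets lay almost all in 1 cluster, built without the 6 members, with 476 control and 464 high fat cells, stem-called ones included. Fabp6 was at 2110 and 2723 CPM in control mice 1 and 2 and at 632.5, 1068 and 1456 CPM in high fat mice 1 to 3. The diets did not overlap (log2 -1.19, SE 0.32, adjusted p = 0.56, and 0.000234 to 1 over 15 alternatives, of which 2 called it). The log2 ratio was -0.90 in the deeper pair of mice and -1.31 in the other 3.

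Slc51b was lower in these cells too, at 184 and 138 CPM against 127, 74.3 and 114 CPM (log2 -0.61, SE 0.23, adjusted p = 0.888). Its partner Slc51a was not: 291 and 377 CPM stood against 245, 488 and 468 CPM, and the diets overlapped (log2 0.27, SE 0.35, adjusted p = 1). Nr1h4 was at 172 and 104 CPM in the control and at 220, 238 and 231 CPM in the high fat mice, higher without overlap (log2 0.74, SE 0.28, adjusted p = 0.888). Slc10a2, at 13.1 and 28.3 CPM against 0, 15.3 and 32.3 CPM, spread more within than between the diets. So 2 members were lower without overlap, against 7.33% of genes, and 1 was higher, against 8.34%. Fgf15 was counted in control mouse 2 (42 UMIs, 6.53 CPM) and high fat mouse 3 (12 UMIs, 2.55 CPM) and was at 0 in the other 3 mice.

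Marker lists gave no single direction beside Fabp6 in these sums. The 14 absorptive markers used to name the cluster added up to 4473 and 11270 CPM in the control and 6651, 6524 and 7849 CPM in the high fat mice, with Aqp8 at 0 in all 5 libraries and Lct at 0 in control mouse 1. In stem-called cells the same markers summed to 1390 and 1787 CPM against 1324, 1019 and 1260 CPM, lower in all high fat mice, as Fabp6 was. The part of these cells in the Fabp6 difference was not tested beyond the sums without absorptive-like cells given above. A list of 13 other genes of the distal segment summed to 1055 and 1590 CPM in control and 1934, 1912 and 2165 CPM in high fat absorptive-like cells, higher in every high fat mouse. The median log2 fold change of its 12 tested genes was -0.25 there, against 0.02 over all genes, so sum and median differ in sign, and none of the 12 was called.

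After thinning to an equal depth, neither the share of absorptive-like cells with a Fabp6 UMI nor the UMIs in each such cell separated the diets. Thinned to 3000 UMIs a cell, 72.8% and 43.5% of absorptive-like cells had a Fabp6 UMI in control mice 1 and 2, and 45.6%, 35.3% and 53.3% in high fat mice 1 to 3. Before thinning these shares did not overlap, at 80.8% and 69.7% against 50.7%, 44.2% and 68.2%. The median depths of those cells differed, at 6237 and 21013 against 10984, 5824 and 16660 UMIs. Cells with a Fabp6 UMI held on average 7.69 and 21.7 Fabp6 UMIs after thinning in control mice 1 and 2, against 3.42, 8.63 and 8.09 in high fat mice 1 to 3. Control mouse 1 had the largest share of such cells, and control mouse 2 had by far the most UMIs in each of them.

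**Figure D3:**
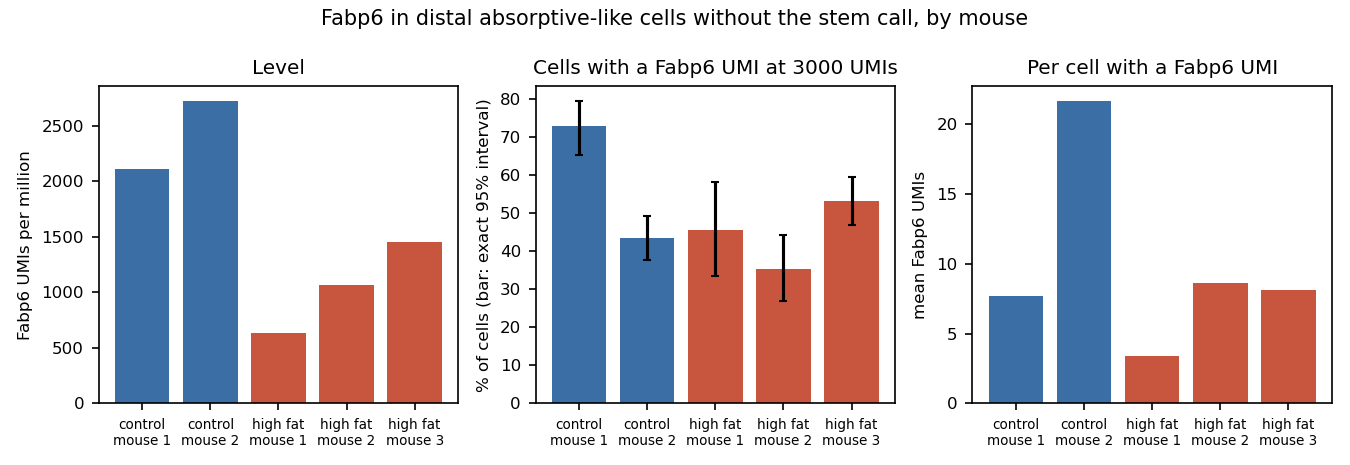
Fabp6 in distal absorptive-like cells without the stem call by mouse: level in CPM (left), share of cells with a Fabp6 UMI after thinning to 3000 UMIs with exact 95% intervals that cover counting error only (middle), and mean Fabp6 UMIs in those cells after thinning (right). Both control bars are above all high fat bars in the left panel, at 2110 and 2723 against at most 1456 CPM, and not in the other two.

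Fabp6 and the exporter were concentrated in absorptive-like cells, and Nr1h4 was spread more evenly. As the mean of the 5 distal libraries, each counted equally, Fabp6 was at 1608 CPM in absorptive-like cells (634.8 in the lowest library), 105 in dividing-like, 61.5 in enteroendocrine-like, 28.2 in goblet-like and 21.2 in stem-like cells. T and B cell-like cells, described next, were at 381 CPM. Slc51a went from 376 CPM in absorptive-like over 59.7 in T and B cell-like and 46.6 in dividing-like to 5.76 in stem-like cells. Slc51b was at 127.5, 17.7, 13.3 and 2.67 CPM in the same classes. Nr1h4 was at 192.5 CPM in absorptive-like, 56.1 in dividing-like, 38.0 in stem-like, 36.5 in goblet-like and 30.5 in T and B cell-like cells. In the 3 colon libraries with enough absorptive-like cells, these held Nr1h4 at a mean of 220.1 CPM, Slc51b at 98.2, Fabp6 at 76.1 and Slc51a at 51.9 CPM.

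**Figure D4:**
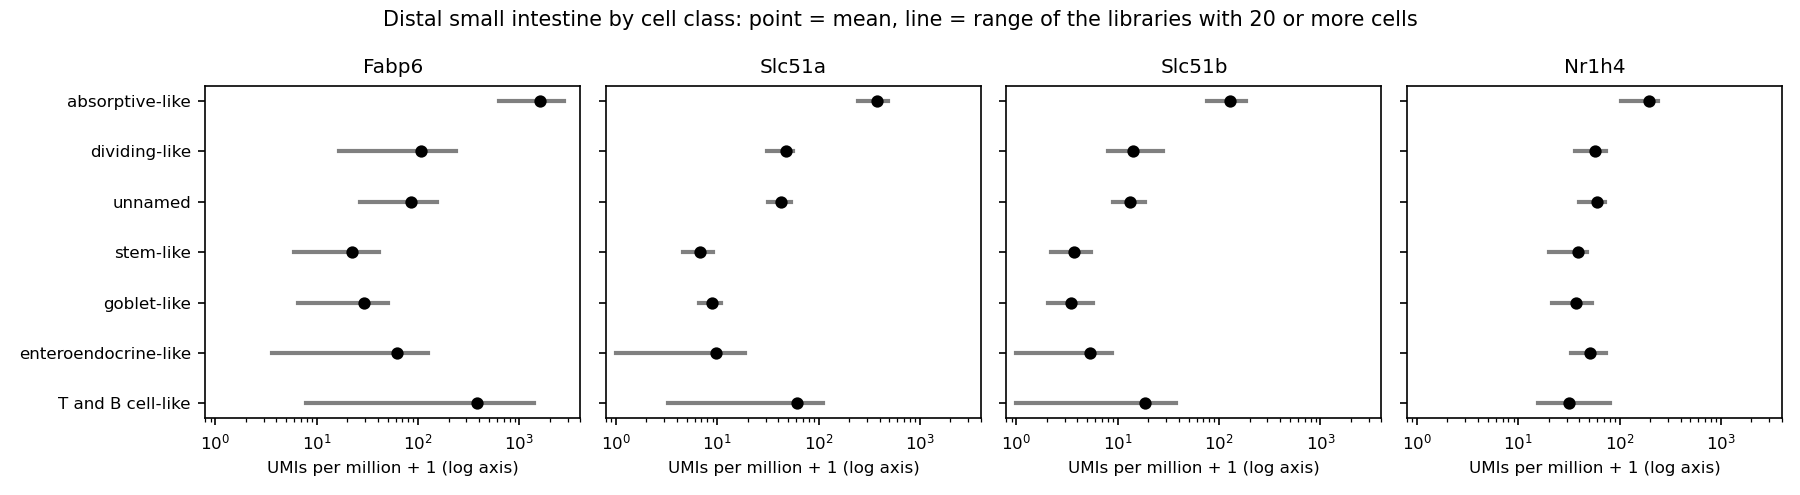
Level of Fabp6, Slc51a, Slc51b and Nr1h4 in 7 classes of distal cells (CPM plus 1, log axis), where the point is the mean of the 5 libraries and the line spans them. Absorptive-like cells have the highest mean for all 4 genes. T and B cell-like cells have a mean of 381 CPM of Fabp6, over a range of 6.89 to 1380 CPM.

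Cells that should lack Fabp6 also carried its UMIs. T and B cell-like cells of the distal small intestine, 276 in number, held 233.5 and 1380 CPM in control mice 1 and 2 and 6.89, 14.7 and 271 CPM in high fat mice 1 to 3. Thinned to 3000 UMIs, 11.0% of 191 such cells had a Fabp6 UMI (exact 95% interval 6.94% to 16.3%; 18.1% of all 276 before thinning, median 4686.5 UMIs). The shares were 50.9% in absorptive-like (median 14115 UMIs), 11.7% in dividing-like, 6.69% in goblet-like and 4.43% in stem-like cells. The goblet-like and stem-like shares lay below that of the T and B cells, and the dividing-like share lay inside its interval. By mouse the T and B share was 25.6% and 11.5% in control mice 1 and 2 and 3.39%, 11.1% and 4.35% in high fat mice 1 to 3. The interval pools these mice and covers counting error only, so it sets no background level for other classes. Whether goblet-like, stem-like and dividing-like cells express Fabp6 was not tested. For Slc51a the T and B share was 5.76%, above the 1.05% of goblet-like, 1.74% of stem-like and 2.73% of enteroendocrine-like cells. The 11.6% of dividing-like cells lay above the T and B interval (2.91% to 10.1%). For Nr1h4 the T and B share was 6.28%, and its interval (3.29% to 10.7%) held the 9.42% of stem-like and 9.75% of goblet-like cells. The 14.75% of dividing-like and 12.7% of enteroendocrine-like cells lay above that interval. Whether free RNA or cells caught together take part in the stem-called Fabp6 levels was not tested.

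Stem-called cells held less of these genes than the other cells of the same distal libraries. The edgeR comparison called 4 of 5 members lower, against 6.73% of 12678 genes. Fabp6 was lower by 2.77 on the log2 scale (log2 -2.77, SE 0.45, adjusted p = 0.00503), Slc51a by a log2 difference of -2.35 (SE 0.38, adjusted p = 0.00479) and Slc51b by -2.28 (SE 0.20, adjusted p = 0.00045). The difference of Nr1h4 was smaller, at -0.99 (SE 0.24, adjusted p = 0.0247). Slc10a2 missed the threshold at -2.65 (SE 0.99, adjusted p = 0.112) and passed it with the library as a block (-2.92, adjusted p = 0.00063), where 5762 genes were called in place of 1529. Without control mouse 2 only Slc51b kept its call. Fabp6 also lost it without control mouse 1 (adjusted p = 0.0516), and Nr1h4 without high fat mouse 2 or 3 (0.107 and 0.0589).

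In the proximal small intestine Fabp6 and Slc10a2 were too low for a comparison of diets to say anything. Slc51a, Slc51b and Nr1h4 each had a set of cells in which all 3 high fat mice were above both controls, and none was called. Slc51a in stem-called cells was at 5.95 and 6.79 CPM in control and 11.6, 16.4 and 9.87 CPM in high fat mice (log2 1.01, SE 0.67, adjusted p = 1). The diets did not overlap, as for 7.3% of genes that were higher in all high fat mice. The mix of these cells differed: unnamed clusters held 16.0% and 31.3% of them in control and 69.6%, 27.5% and 30.3% in high fat mice. In stem-like clusters alone Slc51a was at 2.06 and 1.16 CPM (11 and 5 UMIs) against 7.23, 3.04 and 5.99 CPM (6, 5 and 10 UMIs). The part of this mix in the stem-called levels was not tested. In cells without the stem call, Slc51b was at 4.17 and 5.69 CPM against 6.99, 7.59 and 6.87 CPM, and Nr1h4 at 34.3 and 24.3 CPM against 42.9, 52.7 and 35.5 CPM. Both were higher without overlap, against 5.88% of genes. edgeR called 0 of 4 members in proximal stem-called cells (0.122% of genes), 0 of 5 in the other cells (0.0839%) and 0 of 5 in absorptive-like cells (0.815%). Slc51b in absorptive-like cells, at 16.6 and 21.3 CPM against 25.4, 21.5 and 23.3 CPM, was the 1 member higher without overlap there, as were 12.6% of genes. The gap was narrow, between 21.32 CPM in the higher control and 21.49 CPM in the lowest high fat mouse. High fat mouse 1 had 27 such cells. Proximal absorptive-like cells of the diets lay mostly in separate clusters, 1 with 36 control and 756 high fat cells and 1 with 446 and 59, so their sums compare different clusters.

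The difference of the diet effect between distal and proximal was tested directly. In stem-called cells it was -3.52 for Fabp6 (SE 1.45, adjusted p = 1) and -2.20 for Slc51a (SE 0.93, adjusted p = 1). In cells without the stem call it was -1.49 for Fabp6 (SE 1.45, adjusted p = 1). edgeR called 0 of 12339 and 0 of 14307 genes for this difference, with 178 and 147 at an unadjusted p under 0.05. DESeq2 called 4 and 10 genes and limma voom 0 and 0, no member among them. With the mouse as a block, which compares the organs within each animal, edgeR called 13 and 0 genes and again no member (Fabp6 in stem-called cells -3.47, adjusted p = 0.994). A diet effect that is particular to the distal organ was not shown for any member. For Fabp6 this test could not decide it, because the proximal sums held few counts. These were 1 and 7 UMIs in stem-called cells of control mice 1 and 2, and 2, 1 and 3 in high fat mice 1 to 3. Proximal cells without the stem call held 8 to 39 Fabp6 UMIs a library.

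In the colon no member was called for diet in stem-called or other cells, and neither was any gene (0.0% of 12339 and of 14307, with 314 and 492 at an unadjusted p under 0.05, against 0 and 5 called by DESeq2 and 0 and 0 by limma voom). Fabp6 in stem-called cells, at 5.32 and 12.1 CPM in control and 3.68, 0 and 4.40 CPM in high fat mice, was the 1 member without overlap, lower as 7.65% of genes were. These levels rest on 9 and 31 UMIs against 6, 0 and 19, and the 0 came from 27 cells. The 95% counting intervals of the closest values, 2.43 to 10.1 CPM in control mouse 1 and 2.65 to 6.87 CPM in high fat mouse 3, overlapped.

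Other genes of bile acid and nuclear receptor biology were rarely called for diet. Of 41 listed genes, 34 were in the table. None of the 27 tested in distal stem-called cells (median log2 fold change -0.16, against 0.00 over all genes tested), the 30 in the other distal cells (-0.02 against 0.01) or the 26 in distal absorptive-like cells (0.12 against 0.02) was called. Nr0b2, encoding the repressor SHP and a known target of FXR, had a log2 change of -2.39 (SE 1.27, adjusted p = 1) in distal cells without the stem call, and 1.72 without control mouse 2. In proximal absorptive-like cells, 2 of 26 were called higher, where edgeR called 0.815% of all genes. They were the conjugate exporter Abcc2 (log2 1.22, adjusted p = 0.0195) and the efflux pump Abcb1a (1.11, adjusted p = 0.0419), called in 12 and 11 of 16 settings, with the clusters of the diets apart as described.

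Between the distal and the proximal small intestine, 4 genes of that list were called in each population. In stem-called cells, where 5.46% of all genes were called, 3 of 27 were higher in the distal than in the proximal small intestine, the efflux pumps Abcb1a (2.09) and Abcc4 (1.66) and the cholesterol exporter Abca1 (1.73), and the organic anion transporter Slco2b1 was lower (-1.18). The median of the list was -0.06 against 0.00 over all genes. In cells without the stem call, where 6.32% of all genes were called, Abca1 (2.03) and Abcb1a (1.16) were higher and the receptors Nr1i3 (-1.54) and Nr0b2 (-4.58) lower among 30 tested, with a median of -0.03 against -0.02. Over 13 settings the calls of Abcb1a, Abcc4 and Slco2b1 in stem-called cells stood each time. Abca1 was called in 10 of them in stem-called and 9 in other cells (adjusted p up to 0.092 and 0.227), Nr0b2 in 9 (up to 0.0722), and Abcb1a and Nr1i3 in other cells in 12 each (up to 0.0588 and 0.0658). More of the list was called between distal small intestine and colon. In stem-called cells 6 of 27 were higher in distal and 2 lower, where 12.8% of all genes were called. In other cells 11 of 30 were higher and 3 lower, where 13.9% were called.

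Across the 15 sums of all cells of a library, the genes whose log2(CPM + 1) went most closely with each member were named by rank. They were Suox (Pearson r 0.952), Stambpl1 (0.921) and Dfna5 (0.903) for Fabp6, and Cdkn2b (0.963), Cdh17 (0.942) and Mep1b (0.939) for Slc51a. For Slc51b they were Mep1a (0.932), Fgd6 (0.885) and Dok4 (0.882), and for Nr1h4 Prkab1 (0.892), Mvp (0.887) and Thbs1 (0.885). Slc10a2 went most closely with the member Slc51b (0.877), then Dok4 (0.876) and F11r (0.866). Among the members, Fabp6 and Slc51b had an r of 0.861, and the exporter's subunits Slc51a and Slc51b one of 0.396. The 15 libraries come from 3 organs of 5 mice and differ in depth, so these values describe this set of libraries.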

How the data were processed

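The deposited table holds raw UMI counts per gene and cell, made by the authors with reads placed on mm10 per the submitters' processing notes. The aligner, counting tool and annotation are not given in the sources used here. All values were whole, and every cell's counts added up to the total in the authors' cell table, which gives diet, organ, mouse and stem call. That table numbers the control mice 1 and 3 and the labels 1 and 2, so its mouse 3 was matched to the label 2 as the one number left over.

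The members and gene lists were chosen with earlier results of these data known. Counts were summed per library and set of cells, with at least 20 cells a sum. edgeR 4.0.16 (quasi-likelihood F test, TMM, filterByExpr, R 4.3.3) was fitted to all 6 groups of diet and organ, with Benjamini-Hochberg adjustment over all genes tested and a threshold of 0.05. DESeq2 1.42.0 and limma 3.58.1 were alternatives. The code was tested on simulated counts. SE is the estimate divided by the square root of F. With 2 and 3 mice per diet, p-values rest on few animals. The organs of a mouse come from the same animal, and same-mouse deviations from the group means correlated at 0.115 to 0.603 between organs, so fits with the mouse as a block are given where a call changed.

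Cells were clustered without the 6 members (scanpy 1.11.5, Leiden, leidenalg 0.10.2) and clusters named "-like" from marker lists where at least 3 markers were raised. Of 27 clusters, 7 stayed unnamed, with 35.1% of cells. Scrublet marked 242 doublets (1.28%), which were kept and removed in an alternative. Intervals cover counting error only. Genes beyond the members are named where called, or by likeness as the 3 highest r among 9220 genes with a mean of at least 10 CPM. Gene positions are from GENCODE for mm10 and promoters from RefSeq. For shares of cells, cells were thinned to 3000 UMIs, which left out 961 shallower cells, 316 control and 645 high fat.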

Additional observations from a re-analysis of the deposited data

How the results depend on the processing

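In distal cells Fabp6 had a negative diet estimate under all alternatives run (18 in stem-called, 15 in other and 15 in absorptive-like cells), and whether it passed the threshold depended on the setting. In stem-called cells it became the 1 member called under DESeq2 (-3.02, adjusted p = 0.000319), limma voom (-3.25, 0.0136), no filter on low counts (-3.01, 0.00103), doublets removed (-3.12, 0.0168), the depth set as a factor (-3.06, 0.00384), limma voom with the mouse correlation (-3.28, 0.0182) and a stem call remade at 3000 UMIs (-2.80, 0.00439). In absorptive-like cells it was the 1 member called without the filter (-1.18, 0.000234). The cause was not tested. The mice of the diets share only a number, here that of the labels. With that number as a replicate block, Fabp6 was called in stem-called (-3.68, adjusted p = 0.000544) and absorptive-like cells (-1.49, 0.0103). Mice with the same label number correlated at -0.00986 to 0.411. The cell table numbers control mouse 2 as mouse 3, the number of high fat mouse 3, so its numbering would give another block. Fitted on the distal samples alone, stem-called Fabp6 had an adjusted p of 0.941. Counts over all genes moved too: edgeR called 1, 1 and 2 genes for diet in distal stem-called, other and absorptive-like cells, DESeq2 called 9, 15 and 19, limma voom 2, 0 and 2, and edgeR without the filter 3, 1 and 91. For the proximal organ edgeR called 15, 12 and 87, DESeq2 40, 59 and 113, and limma voom 35, 38 and 113.

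Leaving out each mouse in turn left 0 members called for diet everywhere. It gave 1 to 3 members called between distal and proximal in both populations, 1 to 2 between distal and colon in both, and 1 to 5 between stem-called and other cells. Stem-called Fabp6 then ranged from -3.70 to -2.55. Signs turned for Nr1h4 and diet in distal stem-called cells (-0.36 to 0.72, negative without control mouse 2), for Nr1h4 between distal and colon in other cells (-0.41 to 0.33, positive without control mouse 2 and, at 0.26, without high fat mouse 3), and for Nr0b2 and diet in other distal cells (-4.09 to 1.72, positive without control mouse 2). None of these was called. Outside the Fabp6 diet results, 8 results of single genes gained and 41 lost a call under 1 alternative each, mostly with a mouse left out, and 555 did not change. The remade stem call gave no colon sum for high fat mouse 2, which had under 20 such cells. Fgf15 and distal stem-called Slc10a2 were below the filter on low counts of the main fits, and rest on few counts in any setting that tested them.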
